A study of Mus musculus with 2 samples.

Results

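The genes examined encode 9 nuclear receptors, transcription factors that are switched by small lipid-soluble ligands: the glucocorticoid receptor (Nr3c1), the mineralocorticoid receptor (Nr3c2), oestrogen receptor alpha (Esr1), the progesterone receptor (Pgr), the thyroid hormone receptors alpha and beta (Thra, Thrb), the vitamin D receptor (Vdr), and the related receptors Rora and Nr2f2. They were taken by symbol, with no cut on their values, and are 9 of the 31057 features counted in both libraries. Their levels were followed across adrenal cortical cells that had been sorted into groups by 3 other genes. Cyp11b2 encodes aldosterone synthase of the zona glomerulosa, Cyp11b1 encodes the enzyme that completes corticosterone synthesis in the zona fasciculata, and Aldh1a1 encodes a retinaldehyde dehydrogenase. These 3 genes define the groups and are not reported as results.

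The study profiled single adrenal cells from male mice of 15 weeks, labelled WT and carrying SF1-Cre with the Rosa mTmG reporter. SF1-Cre acts in steroid-producing lineages, where it exchanges a membrane tdTomato for a membrane GFP, and every cell group shares this genotype, sex and age. A total of 26 adrenals was pooled for the study, dissociated, sorted for live cells that took up a DNA dye, and run as 2 droplet libraries with the same labels. The labels do not say how animals were divided between library 1 and library 2. The test removes the general shift between the 2 libraries. Its p-values set a difference between groups against how far such differences vary between these 2 libraries, with variance shared across genes. That spread may be technical.

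Steroid and thyroid hormone receptors and the vitamin D receptor bind a ligand and act on DNA at hexamer repeats. Nr3c1, Nr3c2 and Pgr prefer AGAACA-like hexamers, whereas Esr1, the thyroid hormone receptors and Vdr use AGGTCA-like hexamers, and the thyroid hormone receptors and Vdr do so mostly as partners of the retinoid X receptors. Thyroid hormone is known to act on the innermost cortex of the mouse through the beta receptor, corticosterone made by the fasciculata is a ligand of Nr3c1 and Nr3c2, and the receptors Rora and Nr2f2 are called orphans because no classical hormone has been assigned to them.

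There were 5040 barcodes with 92905273 UMIs in library 1 and 2288 barcodes with 28023733 UMIs in library 2, and 4 barcode sequences occurred in both. Filtering left 5969 cortical cells of the 7328 barcodes, with medians of 18626.5 UMIs in library 1 and 16172 UMIs in library 2. Levels are in CPM, the UMIs of a gene summed over a group and scaled to all UMIs of that group within a library, and paired values are given with library 1 before library 2. The groups held 28 and 26 Aldh1a1-high cells (Aldh1a1 at least 500 CPM), 433 and 263 Cyp11b1-high cells (Cyp11b1 at least 1000 CPM), 480 and 154 Cyp11b1-intermediate cells (from 300 CPM), 2921 and 913 cells low in both Cyp11b genes, 34 and 17 co-expressing cells, and 470 and 230 Cyp11b2-high cells (Cyp11b2 at least 200 CPM with Cyp11b1 under 300 CPM). A further 46 and 27 leukocytes, which should lack steroidogenic transcripts, served as a gauge of free RNA. In cells of low depth the cuts on Cyp11b2 and Cyp11b1 are met by few UMIs, so single cells can fall on either side. Doublets and free RNA can also place cells in the co-expressing group.

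Markers followed the groups in part. The summed level of 5 steroidogenic genes ran from 13155 to 23042 CPM over the cortical sums, and all 5 were detected in every cortical group. The summed level of 6 glomerulosa markers was 761 and 369 CPM in Aldh1a1-high cells, 1684 and 1662 CPM in Cyp11b1-high cells, and 3917 and 5605 CPM in Cyp11b2-high cells. In cells low in both the sum was 3182 and 4154 CPM, nearer to Cyp11b2-high than to Cyp11b1-high cells in each library. Hsd3b6 of that list did not follow the groups, with 235 and 163 CPM in Cyp11b1-high and 224 and 273 CPM in Cyp11b2-high cells. The other markers of the list were higher in Cyp11b2-high than in Cyp11b1-high cells in both libraries. The 4 fasciculata markers summed to 6172 and 9467 CPM in Aldh1a1-high cells, of which Abcb1b alone gave 4659 and 8301 CPM. Their sum did not separate Cyp11b1-high (1671 and 2301 CPM) from Cyp11b2-high cells (1815 and 1720 CPM). Akr1b7 among them went against the name, with 717 and 221 CPM in Aldh1a1-high cells. It had 1351 and 1882 CPM in Cyp11b1-high cells and 1646 and 1556 CPM in Cyp11b2-high cells. Mrap differed little between these groups (158 and 166 CPM against 149 and 147 CPM), while Abcb1b and Srd5a2 were higher in Cyp11b1-high cells. Both X-zone markers were at 0 in every group except for 0.0687 CPM of Pik3c2g in library 2 of the cells low in both. The 5 leukocyte markers summed to at most 7.38 CPM in any cortical group, against 7228 and 8869 CPM in leukocytes, and the 5 endothelial, 5 stromal and 5 chromaffin markers summed to at most 18.1, 1.82 and 0.728 CPM in cortical groups. The 2 libraries of Aldh1a1-high cells differed from each other: mitochondrial UMIs averaged 4.29% and 7.07%, Malat1 reached 28877 and 56652 CPM, and Cyp21a1 stood at 3625 and 659 CPM. The part of these differences in the receptor values was not tested.

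Of the 9 receptors, 8 had enough UMIs to be tested, and Pgr had none. In Aldh1a1-high against Cyp11b1-high cells 3 of the 8 passed the test (edgeR quasi-likelihood, adjusted p under 0.05), with Thrb and Vdr higher and Rora lower, where 14.6% of all 11768 genes passed (7.56% higher and 7.09% lower). In Cyp11b1-high against Cyp11b2-high cells 4 of 8 passed, with Thra and Thrb higher and Nr3c2 and Nr2f2 lower, where 33% of all genes passed (15.3% higher and 17.8% lower). With 8 genes, of which Vdr had to differ in order to be tested at all, nothing particular to receptors as a class is read from these counts. Both comparisons use the Cyp11b1-high sums, so they are not independent of each other.

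**Figure D1:**
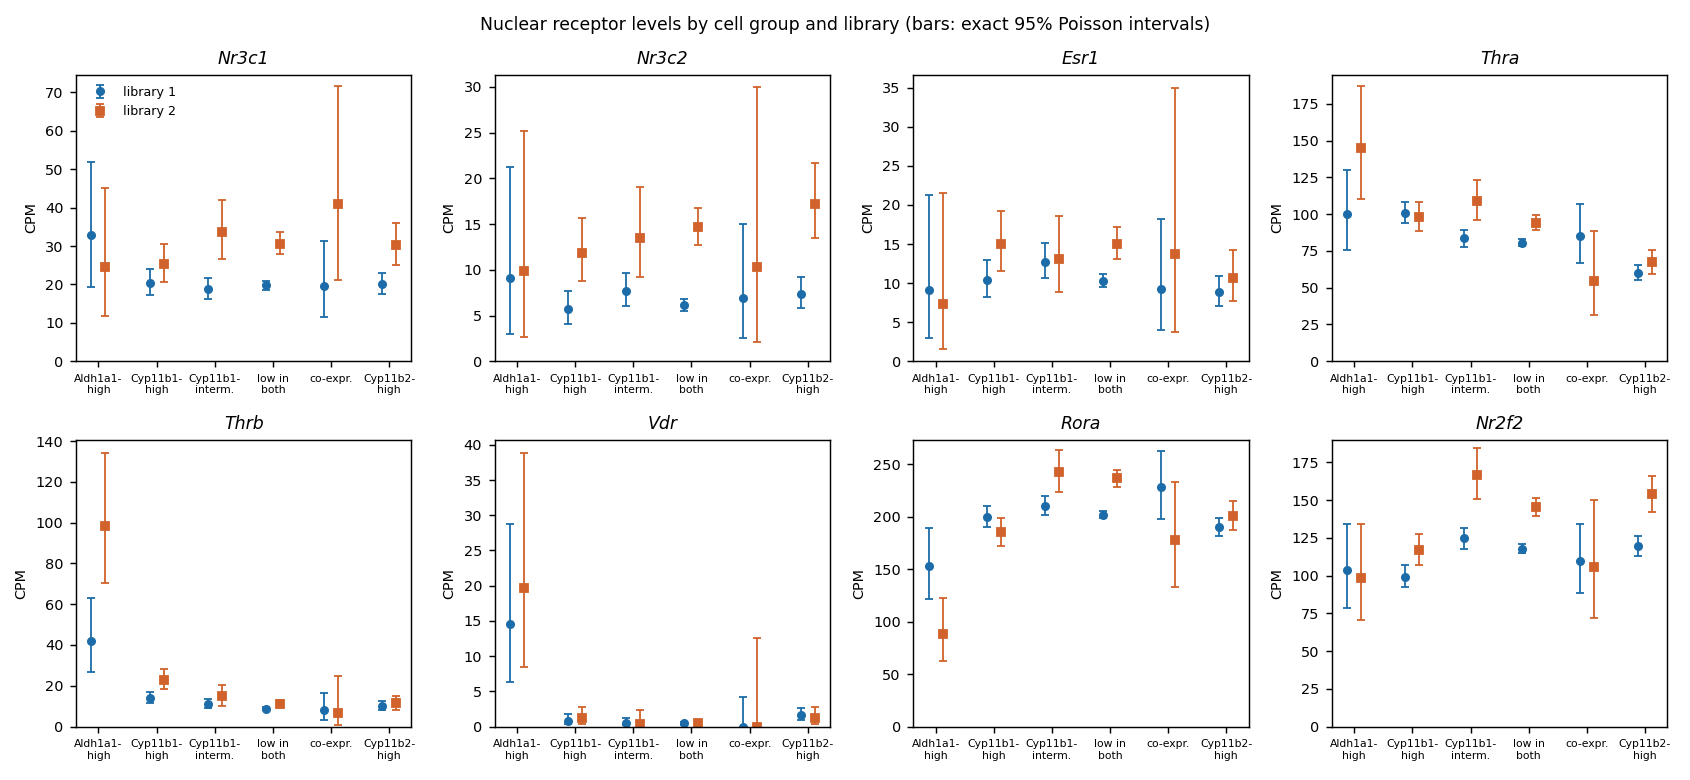
Levels (CPM, linear axes from 0) of the 8 detected receptors in 6 cell groups, with library 1 as circles and library 2 as squares and bars giving exact 95% Poisson intervals for counting error only. Thrb and Vdr were highest in Aldh1a1-high cells in both libraries, at 41.9 and 98.4 CPM and at 14.6 and 19.7 CPM, while Rora was lowest there.

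Thrb, the thyroid hormone receptor beta, was highest in Aldh1a1-high cells. It lies on chromosome 14 (GRCm38, 17660261 to 18038090, plus strand). Its level was 41.9 and 98.4 CPM in Aldh1a1-high cells, 14.0 and 23.0 CPM in Cyp11b1-high cells, 11.1 and 14.8 CPM in Cyp11b1-intermediate cells, 8.81 and 11.1 CPM in cells low in both, 8.07 and 6.84 CPM in co-expressing cells, and 10.2 and 11.3 CPM in Cyp11b2-high cells. The Aldh1a1-high values lay above every value of every other group, whereas the other groups overlapped their neighbours in the order, except that co-expressing cells lay below cells low in both. Against Cyp11b1-high cells the log2 difference was 1.94 ± 0.28 (SE, n = 2 libraries; adjusted p = 3.41e-05 by edgeR), which is 3.83-fold with a 95% interval of 2.63 to 5.59. It was 1.52 in library 1 and 2.20 in library 2, so the size but not the direction differed between libraries.

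The Thrb level rested on 23 and 40 UMIs in the Aldh1a1-high cells. A Thrb UMI was seen in 12 of 28 and 18 of 26 of these cells (42.9% and 69.2%), with exact 95% binomial intervals of 24.5% to 62.8% and 48.2% to 85.7%. Among Cyp11b1-high cells the share was 19.9% and 24.0%. After each cell was thinned to 5000 UMIs the shares were 14.3% and 34.6% in Aldh1a1-high cells and 6.47% and 7.60% in Cyp11b1-high cells, so the order held at equal depth, although the intervals overlapped in library 1. Median depths were 19015 and 14710 UMIs in Aldh1a1-high cells against 8835 and 6936 UMIs in leukocytes, and no leukocyte had a Thrb UMI (0 of 46 and 0 of 27, which allows up to 6.52% and 11.1% of cells).

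Between Cyp11b1-high and Cyp11b2-high cells the Thrb difference was smaller, at 0.59 ± 0.19 on the log2 scale (adjusted p = 0.0233 by edgeR), with 0.34 in library 1 and 0.93 in library 2. The lowest Cyp11b1-high value (14.0 CPM) was above the highest Cyp11b2-high value (11.3 CPM). This call was lost with DESeq2 (adjusted p = 0.0530), with a Cyp11b2 cut of 400 CPM (0.249), with Cyp11b1 cuts of 200 and 500 CPM (0.0728), with thinned cells (0.245) and without the library term (0.287).

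Thra, the more widely expressed thyroid hormone receptor, was lower in Cyp11b2-high than in Cyp11b1-high cells in both libraries. Its level was 100 and 145 CPM in Aldh1a1-high cells, 101 and 98.2 CPM in Cyp11b1-high cells, 83.6 and 109 CPM in Cyp11b1-intermediate cells, 80.5 and 94.1 CPM in cells low in both, 85.3 and 54.7 CPM in co-expressing cells, and 60.2 and 67.2 CPM in Cyp11b2-high cells. Cyp11b2-high cells were thus below all other groups except the co-expressing cells, with which they overlapped. The difference of Cyp11b1-high from Cyp11b2-high cells was 0.56 ± 0.10 (log2, adjusted p = 8.65e-05 by edgeR), that is 1.48-fold (95% interval 1.30 to 1.68), with 0.63 and 0.46 in the separate libraries. Without the library term its adjusted p was 0.175.

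Aldh1a1-high and Cyp11b1-high cells did not separate in Thra: the log2 difference was 0.29 ± 0.18 (adjusted p = 0.331 by edgeR), the fold interval ran from 0.956 to 1.55, and the sign differed between libraries. A Thra UMI was found in 73.9% and 71.5% of Cyp11b1-high cells and in 65.7% and 70% of Cyp11b2-high cells. At 5000 UMIs per cell these shares became 41.3% and 39.5% in Cyp11b1-high cells and 24.9% and 29.1% in Cyp11b2-high cells, whose median depths before thinning were 16873 and 15719 UMIs and 21014.5 and 18987.5 UMIs. Leukocytes gave 21.7% and 18.5% before thinning and 8.70% and 14.8% after it.

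Thra counts carry an uncertainty of annotation. The 3′ end of Thra (chromosome 11, 98740638 to 98769006, plus strand, GRCm38) overlaps that of Nr1d1, a clock repressor on the other strand, over 1075 bases (98767932 to 98769006), and the use of strand in counting is not stated in the labels. Nr1d1 differed in the same direction as Thra, with 119 and 100 CPM in Cyp11b1-high cells against 58.6 and 44.6 CPM in Cyp11b2-high cells. The log2 difference was 0.97 ± 0.10 (adjusted p = 1.85e-07 by edgeR). Both genes were also higher in Cyp11b1-intermediate cells and cells low in both than in Cyp11b2-high cells. In co-expressing cells they parted between libraries, with 60.0 and 109 CPM of Nr1d1 and 85.3 and 54.7 CPM of Thra. Reads shared between the overlapping genes were not tested as a part of the Thra difference.

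Vdr, the receptor for the active form of vitamin D, was close to undetected outside the Aldh1a1-high cells. It lies on chromosome 15 (GRCm38, 97854425 to 97910630, minus strand). All cortical cells together held 86 Vdr UMIs, of which 8 and 8 came from the 28 and 26 Aldh1a1-high cells. The level was 14.6 and 19.7 CPM in Aldh1a1-high cells, 0.795 and 1.21 CPM in Cyp11b1-high cells, 0.514 and 0.422 CPM in Cyp11b1-intermediate cells, 0.437 and 0.481 CPM in cells low in both, 0 and 0 CPM in co-expressing cells, and 1.59 and 1.18 CPM in Cyp11b2-high cells. The Aldh1a1-high values were far above all others, and the remaining groups lay within a few CPM of 0.

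The log2 difference of Aldh1a1-high from Cyp11b1-high cells was 4.15 ± 0.63 (adjusted p = 9.26e-05 by edgeR), or 17.7-fold with a 95% interval of 7.50 to 42.0, and it was 3.83 and 3.89 in the separate libraries. Vdr passed the low-count filter of 2.39 CPM through the Aldh1a1-high sums alone, so that among tested genes it had to differ, and the value describes a size and is no support for a pattern. A Vdr UMI was present in 5 and 7 of the Aldh1a1-high cells (17.9% and 26.9%), against 1.15% and 1.52% of Cyp11b1-high cells. Thinned to 5000 UMIs, the Aldh1a1-high shares were 3.57% and 11.5% and rested on 1 and 3 cells. No leukocyte had a Vdr UMI.

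Most of the Aldh1a1-high cells with Vdr also had Thrb. Both were seen in 4 cells of library 1 and 6 cells of library 2, and neither was seen in 15 and 7 cells. Of all Aldh1a1-high cells, 12 of 28 and 18 of 26 had Thrb, and 5 and 7 had Vdr. Whether the 2 genes coincided more often than these shares and the depth of each cell would give was not tested. Both were also read along Aldh1a1 itself. Just outside the cut, at 100 to under 500 CPM of Aldh1a1, the 13 and 11 cells had 5.82 and 13.5 CPM of Thrb, from 1 and 2 UMIs, and no Vdr UMI. Just inside it, from 500 to under 2000 CPM, the 12 and 3 cells had 23.2 and 67.9 CPM of Thrb, from 6 and 3 UMIs, and 7.72 and 22.6 CPM of Vdr, from 2 and 1 UMIs. The absence of Vdr UMIs just outside has exact 95% Poisson upper limits of 21.5 and 24.98 CPM, which cover the values just inside, so a difference of Vdr across the cut was not detectable at this depth. For Thrb the Poisson intervals just outside were 0.147 to 32.4 and 1.64 to 48.9 CPM. They overlapped those just inside, 8.50 to 50.4 and 14.0 to 198 CPM, so a step of Thrb at the cut was not resolved either. Cells of 2000 CPM and over (16 and 23 cells) had 58.6 and 102 CPM of Thrb and 20.7 and 19.3 CPM of Vdr.

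The sequences upstream of the RefSeq starts of these receptors are shown because Thrb and Vdr were the pair that stood higher in the same cells. Capitals mark the hexamer AGGTCA and the SP1 box GGGCGG on either strand, the sequences run 5′ to 3′ on the strand of the gene, and each stops before the first annotated exon in the window. They are credited to RefSeq, build GRCm38.p6. The Thrb window is chr14:17660710-17660891 on the plus strand, and the Vdr window is chr15:97908311-97908546 on the minus strand. Both windows lie inside the GENCODE spans of the genes given above, so these starts are not the outermost annotated ones.
Thrb: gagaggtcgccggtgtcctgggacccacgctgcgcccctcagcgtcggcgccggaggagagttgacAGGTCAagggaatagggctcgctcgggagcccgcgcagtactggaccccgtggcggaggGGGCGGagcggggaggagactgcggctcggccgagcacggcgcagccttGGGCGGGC
Vdr: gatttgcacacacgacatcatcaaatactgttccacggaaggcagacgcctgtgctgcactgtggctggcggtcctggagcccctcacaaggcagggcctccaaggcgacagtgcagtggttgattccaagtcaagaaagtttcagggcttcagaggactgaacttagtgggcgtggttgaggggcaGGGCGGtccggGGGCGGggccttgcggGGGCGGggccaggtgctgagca
Counted back from the start, Thrb held an AGGTCA hexamer at -184 and GGGCGG boxes at -125, -76 and -72, the last pair overlapping and running past the end of the sequence shown. Vdr held GGGCGG boxes at -63, -52 and -36, and neither AGGTCA nor the steroid receptor hexamer AGAACA in the 250 bases upstream. Of 32851 promoters of that length 14.0% held AGGTCA, 16.1% held AGAACA and 32.7% held GGGCGG on either strand, and a match is a description of letters, not of a bound site. RefSeq lists a further Thrb start, with AGAACA hexamers at -23 and -7, and the 3′ counts do not tell which start was used.

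**Figure D2:**
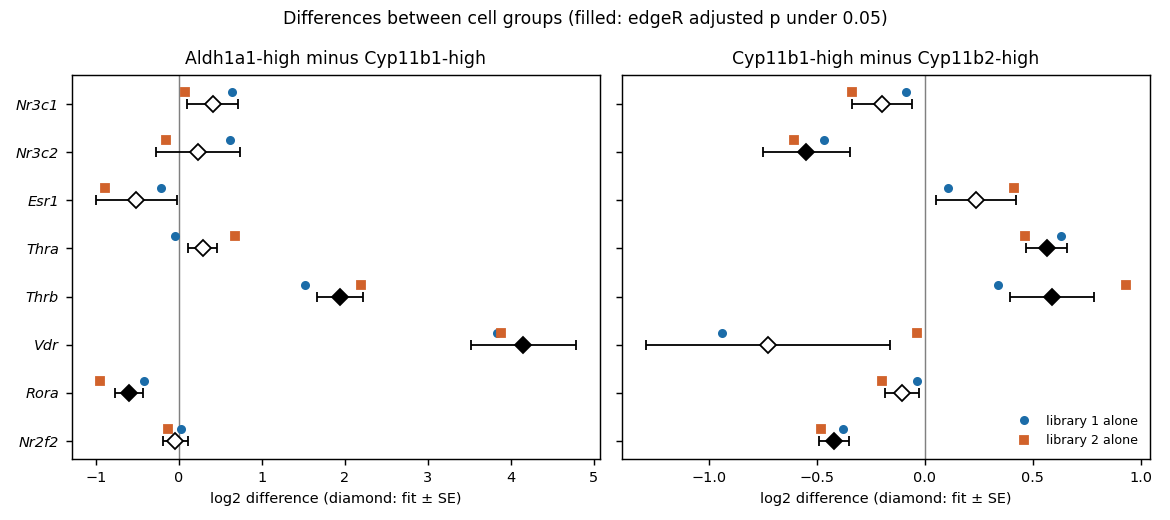
Log2 differences of the 8 tested receptors between Aldh1a1-high and Cyp11b1-high cells (left) and between Cyp11b1-high and Cyp11b2-high cells (right), as the edgeR estimate (diamond, bar ± SE) and in library 1 (circle) and library 2 (square) alone. Filled diamonds passed an adjusted p of 0.05: Thrb at 1.94, Vdr at 4.15 and Rora at -0.60 on the left, and Nr3c2 at -0.55, Thra at 0.56, Thrb at 0.59 and Nr2f2 at -0.42 on the right.

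Nr3c1, the glucocorticoid receptor (chromosome 18, GRCm38, 39410545 to 39519421), passed no test between cortical groups. Its level was 32.8 and 24.6 CPM in Aldh1a1-high cells, 20.4 and 25.2 CPM in Cyp11b1-high cells, 18.8 and 33.7 CPM in Cyp11b1-intermediate cells, 19.7 and 30.6 CPM in cells low in both, 19.6 and 41.0 CPM in co-expressing cells, and 20.1 and 30.2 CPM in Cyp11b2-high cells. All groups overlapped, and in every group but the Aldh1a1-high cells library 2 read higher. The log2 difference was 0.41 ± 0.31 between Aldh1a1-high and Cyp11b1-high cells (adjusted p = 0.436 by edgeR) and -0.20 ± 0.14 between Cyp11b1-high and Cyp11b2-high cells (adjusted p = 0.292), with fold intervals of 0.874 to 2.01 and 0.723 to 1.05. Leukocytes, which are known to express this receptor, had 63.7 and 89.7 CPM, above every cortical value.

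Nr3c2, the mineralocorticoid receptor (chromosome 8, 76899442 to 77245012), was lower in Cyp11b1-high than in Cyp11b2-high cells of each library. It had 9.10 and 9.84 CPM in Aldh1a1-high cells, 5.70 and 11.9 CPM in Cyp11b1-high cells, 7.70 and 13.5 CPM in Cyp11b1-intermediate cells, 6.10 and 14.6 CPM in cells low in both, 6.92 and 10.3 CPM in co-expressing cells, and 7.36 and 17.2 CPM in Cyp11b2-high cells. Library 2 read higher in every group, by more than most groups differed, so the values of all groups overlapped and the difference shows only within a library. Cyp11b1-high minus Cyp11b2-high was -0.55 ± 0.20 (log2, adjusted p = 0.0394 by edgeR), with -0.47 and -0.61 in the separate libraries. The call was lost under 8 of the alternatives, among them DESeq2 (adjusted p = 0.106), doublets kept (0.0534), thinned cells (0.694) and no library term (0.619). No Nr3c2 UMI was found in leukocytes.

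Esr1, oestrogen receptor alpha (chromosome 10, 4611593 to 5005614), was detected in all groups of these male adrenals and did not pass in any comparison. Its level was 9.10 and 7.38 CPM in Aldh1a1-high cells, 10.3 and 15.0 CPM in Cyp11b1-high cells, 12.7 and 13.1 CPM in Cyp11b1-intermediate cells, 10.3 and 15.0 CPM in cells low in both, 9.22 and 13.7 CPM in co-expressing cells, and 8.85 and 10.6 CPM in Cyp11b2-high cells. Neighbouring groups overlapped throughout, and the Aldh1a1-high values rested on 5 and 3 UMIs. The fold intervals were 0.360 to 1.36 for Aldh1a1-high over Cyp11b1-high cells and 0.917 to 1.52 for Cyp11b1-high over Cyp11b2-high cells. Pgr, the progesterone receptor, had 0 UMIs in all 5969 cortical cells, which allows a level of up to 0.0268 CPM and a UMI in up to 0.0503% of cells.

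Rora, a receptor with known roles in the circadian clock and in lipid metabolism (chromosome 9, 68653786 to 69388246), was lowest in Aldh1a1-high cells. Its level was 153 and 88.5 CPM in Aldh1a1-high cells, 200 and 185 CPM in Cyp11b1-high cells, 210 and 242 CPM in Cyp11b1-intermediate cells, 202 and 236 CPM in cells low in both, 228 and 178 CPM in co-expressing cells, and 190 and 201 CPM in Cyp11b2-high cells. The Aldh1a1-high values lay below all others, and the other 5 groups overlapped along the order. Aldh1a1-high minus Cyp11b1-high was -0.60 ± 0.17 (log2, adjusted p = 0.0186 by edgeR), that is 0.659-fold (95% interval 0.524 to 0.829), with -0.42 and -0.95 in the separate libraries. The call was lost with Cyp11b1 cuts of 500 and 2000 CPM (adjusted p = 0.0738), with thinned cells (0.137) and without the library term (0.246). Cyp11b1-high and Cyp11b2-high cells differed by -0.11 ± 0.08 (adjusted p = 0.328), with a fold interval of 0.836 to 1.03.

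Nr2f2 (COUP-TFII), an orphan receptor known from steroidogenic and vascular development (chromosome 7, 70351944 to 70366735), was lower in Cyp11b1-high than in Cyp11b2-high cells of each library. Its level was 104 and 98.4 CPM in Aldh1a1-high cells, 99.4 and 117 CPM in Cyp11b1-high cells, 125 and 167 CPM in Cyp11b1-intermediate cells, 118 and 145 CPM in cells low in both, 110 and 106 CPM in co-expressing cells, and 119 and 154 CPM in Cyp11b2-high cells. The Cyp11b1-high values were both below the lowest Cyp11b2-high value, and the Aldh1a1-high values overlapped those of Cyp11b1-high cells. The log2 difference of Cyp11b1-high from Cyp11b2-high cells was -0.42 ± 0.07 (adjusted p = 4.78e-05 by edgeR), with -0.38 and -0.48 in the separate libraries, and its adjusted p without the library term was 0.153. Aldh1a1-high minus Cyp11b1-high was -0.04 ± 0.15 (adjusted p = 0.900), a fold of 0.791 to 1.19, and its sign turned under several alternatives.

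Leukocytes gave a gauge of how much cortical RNA reaches other droplets, for genes that leukocytes do not express themselves. Relative to the cortical level of the same library, leukocytes had 17.4% and 15.0% for Rora, 24.4% and 6.60% for Nr2f2 and 43.7% and 30.8% for Thra. The steroidogenic genes Star, Cyp11a1, Hsd3b1 and Cyp21a1 had 19.3% to 28.2% in library 1 and 5.28% to 9.33% in library 2. In library 2 Nr2f2 lay within the range of the steroidogenic genes and Rora above it, whereas in library 1 Nr2f2 lay within the range and Rora below it. Thra was above the range in both libraries. Whether leukocytes express Thra, Rora or Nr2f2 themselves was not tested. The GFP reporter did not follow the steroidogenic genes, with 2752.5 and 3471 CPM in leukocytes. It had 2201 and 2360 CPM in Cyp11b1-high cells and 3576 and 4457 CPM in Cyp11b2-high cells.

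Cells under 200 CPM of Cyp11b2 and under 500 CPM of Aldh1a1 were also read along Cyp11b1 itself. The lowest 2 of the 5 bins divide the cells low in both, the third is the Cyp11b1-intermediate group and the upper 2 divide the Cyp11b1-high group, so the bins hold the cells of the group comparison again in finer steps. From 0, over 0 to under 300, 300 to under 1000, 1000 to under 2000, to 2000 CPM and over, Thrb had 7.96, 10.6, 11.1, 12.8 and 16.6 CPM in library 1 and 11.7, 9.68, 14.8, 18.8 and 25.4 CPM in library 2. The top bin was the highest in both libraries, and the counting intervals of neighbouring bins overlapped except for the lowest pair in library 1. Over the same bins Rora had 195, 216, 210, 212 and 177 CPM in library 1 and 240, 228, 242, 195 and 179 CPM in library 2, so the top bin was the lowest in both. Nr2f2 had 119, 115, 125, 102 and 93.6 CPM in library 1 and 147, 142, 167, 133 and 108 CPM in library 2, likewise lowest in the top bin. Thra had 80.8, 79.7, 83.6, 101 and 99.9 CPM in library 1 and 96.2, 88.6, 109, 105 and 94.2 CPM in library 2, and the top bin was not the highest in either.

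**Figure D3:**
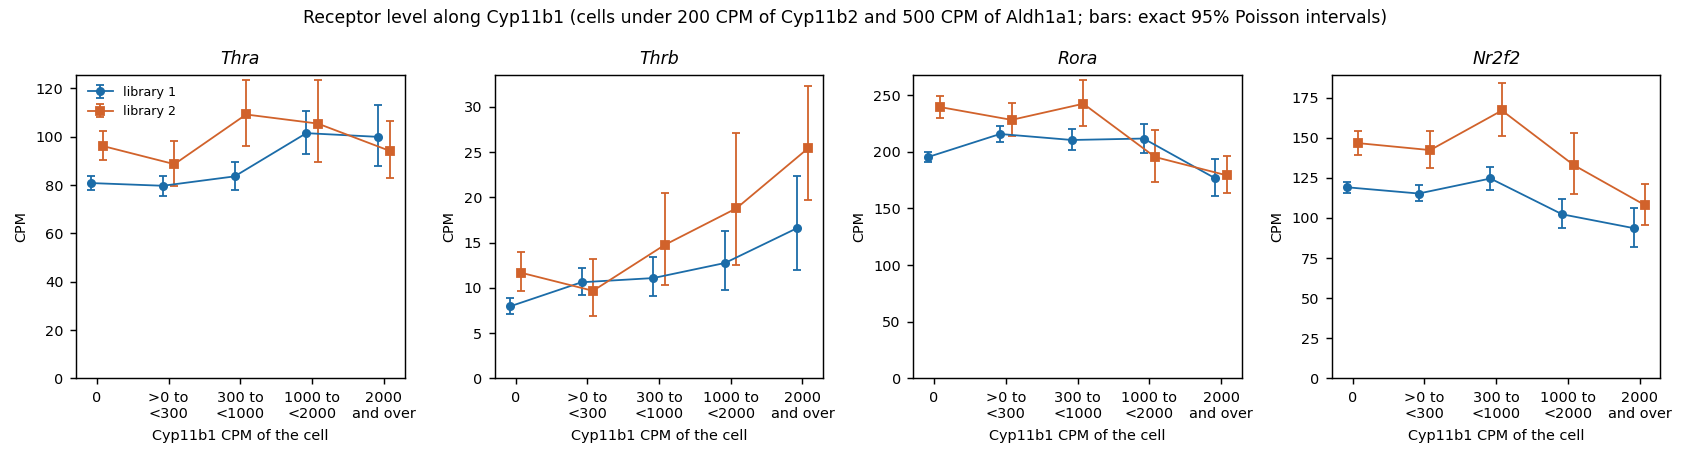
Levels of Thra, Thrb, Rora and Nr2f2 (CPM) in 5 bins of the cell's own Cyp11b1 level, for library 1 (circles) and library 2 (squares), with exact 95% Poisson intervals for counting error only. Thrb reached 16.6 and 25.4 CPM in the top bin, while Rora (177 and 179 CPM) and Nr2f2 (93.6 and 108 CPM) were lowest there.

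The remaining 3 groups were each compared with the same Cyp11b2-high cells, so these comparisons share their baseline with each other and with that of the Cyp11b1-high cells. In Cyp11b1-intermediate cells only Thra of the 8 tested receptors passed, at 0.45 ± 0.10 (log2, adjusted p = 0.00245 by edgeR), where 16.8% of all genes passed (6.9% higher and 9.9% lower). In cells low in both, Thra passed at 0.40 ± 0.09 (adjusted p = 0.00263) and Vdr at -1.71 ± 0.47 (adjusted p = 0.0175), where 13.6% of all genes passed (6.21% higher and 7.4% lower). Vdr there compares 25 and 7 UMIs with 16 and 5 UMIs in Cyp11b2-high cells, and entered the test through the Aldh1a1-high sums. Without the library term these 3 calls were lost, with adjusted p of 0.506 and 0.986 for Thra in the order given and 0.267 for Vdr, whose call was also lost with a Cyp11b2 cut of 400 CPM (0.106). None of the 8 receptors passed between co-expressing and Cyp11b2-high cells, where edgeR called 6 genes (0.051%), 821 had an unadjusted p under 0.05 and DESeq2 called 15. Among the 8, Nr2f2 had an unadjusted p of 0.0151 there. Its level was lower in co-expressing cells in both libraries. With 34 and 17 co-expressing cells, differences of this size in the rarer receptors were not detectable at this depth.

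Of 11 listed genes that carry, bind or respond to thyroid hormone, 6 could be tested and 5 could not. In Cyp11b1-high against Cyp11b2-high cells 5 were higher and 1 was lower, where 15.3% of all genes were higher and 17.8% lower, with a median log2 difference of 1.11 against -0.01 over all genes. In Aldh1a1-high against Cyp11b1-high cells, where 7.56% of all genes were higher and 7.09% lower, 3 were higher, 1 lower and 2 did not pass. The median there was 0.77 against -0.06 over all genes. The list is small and was chosen with earlier results of these data known. Its counts and medians are therefore descriptions and no independent support.

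Thrsp, a lipogenic gene induced by thyroid hormone in liver, had 20.03 and 22.1 CPM in Aldh1a1-high cells, 11.1 and 11.4 CPM in Cyp11b1-high cells, and 0.696 and 0.944 CPM in Cyp11b2-high cells, which came from 7 and 4 UMIs. It passed between Cyp11b1-high and Cyp11b2-high cells (3.73 ± 0.39, adjusted p = 2.46e-07 by edgeR) and not between Aldh1a1-high and Cyp11b1-high cells (0.92 ± 0.43, adjusted p = 0.180). Crym, a thyroid hormone-binding protein of the cytosol, had 25.5 and 12.3 CPM in Aldh1a1-high cells against 5.04 and 7.28 CPM in Cyp11b1-high cells (1.76 ± 0.50, adjusted p = 0.0202). The exceptions were Klf9, which was lower in Aldh1a1-high than in Cyp11b1-high cells (120 and 108 CPM against 157 and 158 CPM, -0.42 ± 0.14, adjusted p = 0.0473), and the transporter gene Slc16a10, lower in Cyp11b1-high than in Cyp11b2-high cells (16.3 and 25.5 CPM against 21.4 and 38.2 CPM, -0.58 ± 0.12, adjusted p = 0.00103). The deiodinase genes Dio1 and Dio2 were at or near 0: Dio1 had no UMI in any group, and Dio2 had 0.133 CPM in library 1 of the Cyp11b1-high cells alone.

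Genes around the glucocorticoid receptor divided between directions. Of 10 chaperone genes 1 was higher, 3 were lower and 6 did not pass in Cyp11b1-high against Cyp11b2-high cells. Over all genes 15.3% were higher and 17.8% lower there. In Aldh1a1-high against Cyp11b1-high cells, where 7.56% of all genes were higher and 7.09% lower, 1 was higher, 2 lower and 7 did not pass. With 10 genes nothing particular to the list is read from these counts. The higher gene was Fkbp5 in both comparisons, a co-chaperone that glucocorticoids induce and that holds the receptor in a low-affinity state. It had 87.4 and 145 CPM in Aldh1a1-high cells, 46.9 and 70.8 CPM in Cyp11b1-high cells and 31.3 and 52.6 CPM in Cyp11b2-high cells. Library 2 read higher in each group, and within each library the 3 groups kept that order, with log2 differences of 1.01 ± 0.16 (adjusted p = 8.60e-05 by edgeR) and 0.41 ± 0.09 (adjusted p = 0.00152). The lower chaperones included the ubiquitin ligase gene Stub1 (-0.40 and -0.36 in the same comparisons), Fkbp4 (-0.41, Aldh1a1-high minus Cyp11b1-high) and Stip1 (-0.33, Cyp11b1-high minus Cyp11b2-high).

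Of 16 listed glucocorticoid and mineralocorticoid target genes 13 could be tested. In Cyp11b1-high against Cyp11b2-high cells, where 15.3% of all genes were higher and 17.8% lower, 6 were higher, 1 lower and 6 did not pass. In Aldh1a1-high against Cyp11b1-high cells, where 7.56% of all genes were higher and 7.09% lower, 5 were higher, 3 lower and 5 did not pass. The median log2 differences of the list were 0.33 and -0.05 in these comparisons. Zbtb16, a zinc-finger gene induced by glucocorticoids, had 49.2 and 68.9 CPM in Aldh1a1-high cells against 10.7 and 19.2 CPM in Cyp11b1-high cells (2.06 ± 0.30, adjusted p = 4.83e-05 by edgeR). The metallothionein gene Mt2 differed by 1.53 ± 0.19 in the same comparison and by 2.54 ± 0.16 between Cyp11b1-high and Cyp11b2-high cells, where Mt1 differed by 1.70 ± 0.09, although reads of this family may be shared. Dusp1, a phosphatase gene that also responds to cell handling, was lower in Aldh1a1-high than in Cyp11b1-high cells, at 1.82 and 9.84 CPM against 27.6 and 43.2 CPM, from 1 and 4 UMIs against 208 and 178 UMIs. Atp1b1, a subunit of the sodium pump, was lower in Cyp11b1-high than in Cyp11b2-high cells (-0.73 ± 0.11, adjusted p = 2.56e-05).

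Among genes of glucocorticoid conversion, the dehydrogenase genes Hsd11b1 and Hsd11b2 were at or near 0 in every cortical group, at no more than 0.243 CPM. Of 7 listed genes 4 could be tested. In Cyp11b1-high against Cyp11b2-high cells, where 15.3% of all genes were higher and 17.8% lower, 3 were higher and 1 did not pass. In Aldh1a1-high against Cyp11b1-high cells, where 7.56% of all genes were higher and 7.09% lower, 2 were higher and 2 did not pass. Srd5a2, a steroid reductase and also a marker gene of the fasciculata list, had 417 and 553 CPM in Aldh1a1-high cells, 23.5 and 32.3 CPM in Cyp11b1-high cells and no UMI in Cyp11b2-high cells. Set against a floor of 3 UMIs per library it was at least 78.6-fold and 45.6-fold higher in Cyp11b1-high than in Cyp11b2-high cells, and the log2 difference of Aldh1a1-high from Cyp11b1-high cells was 4.16 ± 0.13 (adjusted p = 9.53e-15 by edgeR). H6pd, which supplies NADPH within the endoplasmic reticulum, differed by 1.36 ± 0.23 and 1.44 ± 0.16 in the same comparisons.

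**Figure D4:**
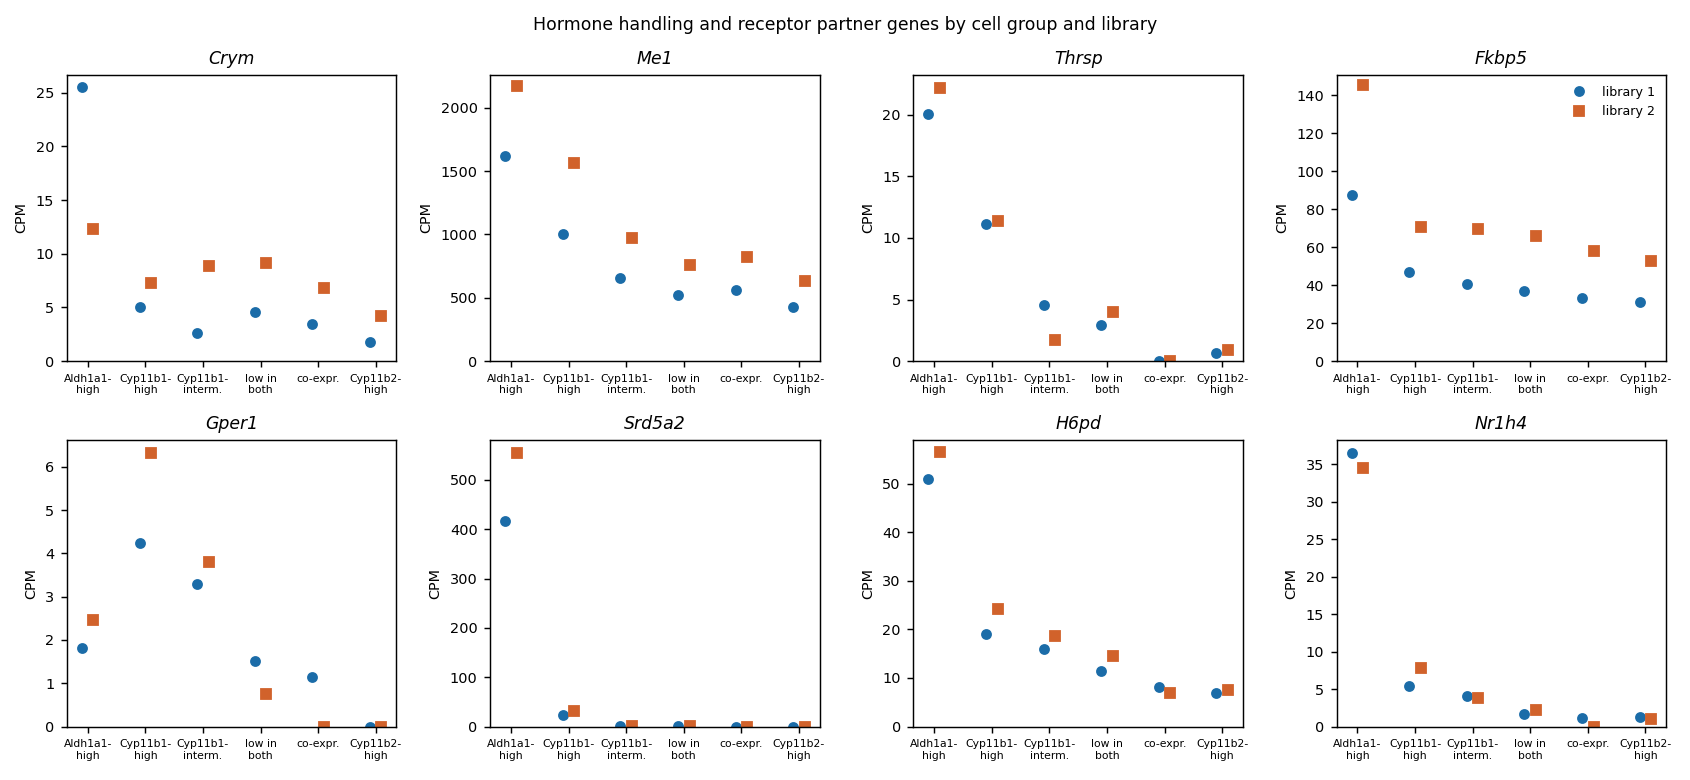
Levels (CPM, linear axes from 0) of 8 genes that bind, convert or respond to thyroid, oestrogen, glucocorticoid or bile acid ligands, in 6 cell groups of library 1 (circles) and library 2 (squares). Srd5a2 and Nr1h4 stood highest in Aldh1a1-high cells, at 417 and 553 CPM and at 36.4 and 34.4 CPM, and Gper1 was highest in Cyp11b1-high cells at 4.24 and 6.31 CPM.

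Of 14 genes of oestrogen and progesterone signalling 10 could be tested. In Cyp11b1-high against Cyp11b2-high cells, where 15.3% of all genes were higher and 17.8% lower, 5 were higher, 1 lower and 4 did not pass. In Aldh1a1-high against Cyp11b1-high cells, where 7.56% of all genes were higher and 7.09% lower, 2 were higher, 2 lower and 6 did not pass. Gper1, a membrane oestrogen receptor, had 4.24 and 6.31 CPM in Cyp11b1-high cells and no UMI in Cyp11b2-high cells, at least 14.2-fold and 8.91-fold higher against the same floor of 3 UMIs per library. The summed endothelial markers moved the same way, at 15.1 and 12.1 CPM in Cyp11b1-high cells against 1.99 and 1.89 CPM in Cyp11b2-high cells. Most of that sum was Kdr, at 12.9 and 8.49 CPM in Cyp11b1-high cells, while Cdh5 had 0 and 0.243 CPM and Pecam1 0.265 and 0.485 CPM there. Their part in the Gper1 difference was not tested. Cited1, an oestrogen receptor coactivator, had 76.6 and 83.0 CPM in Cyp11b1-high cells against 7.36 and 3.07 CPM in Cyp11b2-high cells (3.65 ± 0.21, adjusted p = 2.57e-11 by edgeR). Greb1, known as an oestrogen-induced gene in breast cells, ran the other way, with 196 and 258 CPM in Cyp11b1-high cells against 297 and 407 CPM in Cyp11b2-high cells (-0.72 ± 0.06). It was higher again in Aldh1a1-high than in Cyp11b1-high cells (0.33 ± 0.11, adjusted p = 0.0476). In that comparison Pgrmc1, a haem-binding membrane protein once described as a progesterone receptor, was also higher (0.61 ± 0.08), and the membrane receptor gene Paqr8 (-0.73 ± 0.23) and the corepressor gene Nrip1 (-0.59 ± 0.14) were lower. Esr2, oestrogen receptor beta, had no UMI in any group.

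None of the 7 listed genes that make, take up or answer to vitamin D passed the low-count filter, so none was tested. Cyp24a1, the vitamin D catabolic enzyme and a classical Vdr target, had 0.472 CPM in library 2 of the Cyp11b2-high cells and no UMI in any other group, and Cyp27b1, the activating enzyme, stayed at or under 0.236 CPM. Cyp2r1, a vitamin D 25-hydroxylase, had 0 and 4.92 CPM in Aldh1a1-high cells and at most 1.65 CPM in the other cortical groups. In the Aldh1a1-high cells Cyp24a1 and Cyp27b1 were at 0, where a count of 0 allows up to 5.46 and 7.38 CPM.

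Of 29 other nuclear receptors 20 could be tested. In Cyp11b1-high against Cyp11b2-high cells, where 15.3% of all genes were higher and 17.8% lower, 5 were higher, 2 lower and 13 did not pass. The count of those passing is near the share of 33% over all genes. In Aldh1a1-high against Cyp11b1-high cells, where 7.56% of all genes were higher and 7.09% lower, 1 was higher and 19 did not pass. That 1 was Nr1h4, the bile acid receptor FXR, with 36.4 and 34.4 CPM in Aldh1a1-high cells, 5.43 and 7.76 CPM in Cyp11b1-high cells and 1.29 and 0.944 CPM in Cyp11b2-high cells. Its groups did not overlap, and the log2 differences were 2.51 ± 0.36 (adjusted p = 3.65e-05 by edgeR) and 2.29 ± 0.37 (adjusted p = 4.98e-05). The oxysterol receptor gene Nr1h3 was also higher in Cyp11b1-high than in Cyp11b2-high cells (2.17 ± 0.50), and Nr2f1, the closest relative of Nr2f2, and the clock repressor gene Nr1d2 were lower there (-0.39 ± 0.10 and -0.36 ± 0.10). The retinoid X receptor genes Rxra and Rxrb, partners of the thyroid hormone receptors and Vdr, were found in all cortical groups except that Rxra had no UMI in library 2 of the Aldh1a1-high cells, and Rxrg had no UMI in any group.

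The 19 coregulator genes were all tested. In Cyp11b1-high against Cyp11b2-high cells, where 15.3% of all genes were higher and 17.8% lower, 3 were higher, 2 lower and 14 did not pass. In Aldh1a1-high against Cyp11b1-high cells, where 7.56% of all genes were higher and 7.09% lower, 1 was higher, 2 lower and 16 did not pass. With 19 genes nothing particular to coregulators is read from these counts. Ncoa7 was the gene that was higher in both comparisons, at 102 and 93.5 CPM in Aldh1a1-high cells, 32.7 and 37.4 CPM in Cyp11b1-high cells and 22.4 and 18.9 CPM in Cyp11b2-high cells (1.54 ± 0.20 and 0.60 ± 0.13). Tbl1xr1, a corepressor exchange factor, was higher in Cyp11b1-high than in Cyp11b2-high cells (0.45 ± 0.14). Ppargc1a, a coactivator of mitochondrial genes, was lower there (-1.18 ± 0.21, adjusted p = 0.000189 by edgeR), and Pnrc1 was lower in both comparisons (-0.62 ± 0.14 and -0.34 ± 0.07).

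Genes with the most similar levels were sought over the 12 group and library sums among 6536 genes, as Pearson's r of log2 CPM. For Thrb these were Lgmn (0.987), Slc38a10 (0.986) and Irak1 (0.983), and for Vdr they were Uchl1 (0.980), Bmp7 (0.979) and Nampt (0.975). For Rora they were Bend5 (0.975), Dnm1l (0.975) and Etv5 (0.974), and for Thra they were Gas1 (0.965), Slc35b2 (0.948) and Wwtr1 (0.944). The closest gene was Gcn1l1 for Nr3c1 (0.968), Cdc42bpa for Nr3c2 (0.942), Zfp422 for Esr1 (0.903) and Gnaq for Nr2f2 (0.900). The sums share library, animals and depth, and the high values for Thrb and Vdr rest on the Aldh1a1-high sums, so these figures are descriptions.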

How the data were processed

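Single-cell RNA-seq of 1 group in 2 libraries was deposited as UMI counts per gene and barcode, which the authors produced with Cell Ranger 3.1.0 per the file headers, on mm10 per the submitters' processing notes. The use of strand and the calling of cells are not given in the sources used here. Of 31057 features 30934 matched GENCODE vM21 by identifier, and all 9 receptors matched.

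Cells were kept from 5000 UMIs and 500 genes upwards and with up to 30% mitochondrial UMIs, after removal of the highest scrublet scores (scanpy 1.11.5) at 0.8% per 1000 barcodes. Doublets took 203 and 42 cells, the UMI cut a further 275 and 339, and the other filters 148 and 276. Cortical cells had at least 1000 CPM of Star, Cyp11a1, Hsd3b1 and Cyp21a1 together, under 500 CPM of leukocyte, endothelial or stromal markers and under 2000 CPM of chromaffin markers. Groups were assigned in the order Aldh1a1-high, co-expressing (Cyp11b2 at least 200 and Cyp11b1 at least 300 CPM), Cyp11b2-high, Cyp11b1-high, Cyp11b1-intermediate and low in both. Free RNA was not subtracted, and close paralogs (Cyp11b1 and Cyp11b2, Mt1 and Mt2) may share reads.

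Counts were summed per group and library and tested in edgeR 4.0.16 (R 4.3.3, limma 3.58.1), with terms for group and library, TMM scaling, the low-count filter by group and Benjamini-Hochberg adjustment over 11768 genes. The model had 5 residual and 15.83 prior degrees of freedom. Library pairs the groups because all groups of a library come from the same cell suspension. A standard error thus leans on the variance of other genes. Single-library differences used a prior count of 2. Intervals have a nominal level of 95%. Those of levels and of shares of cells cover counting error only. Fold intervals use a normal quantile and a standard error derived from the edgeR F statistic, so they run slightly narrow. A count of 0 was set to 3 UMIs. Genes outside the 9 receptors were named as up to 2 per list and direction with the largest called difference of the same sign in both libraries. Levels of Nr1d1, Rxra, Rxrb and listed genes at or near 0 are given outside this rule and were chosen after their values were seen. A gene that the rule took is not reported here. Klf9, Fkbp5 and Nrip1 stand in 2 lists each. Promoters came from RefSeq, which had entries for 7 of the 9 receptors. The similar genes had at least 20 CPM on average, with a pseudocount of 1.

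The receptors, lists, cuts and tests were chosen with earlier results of these data known. Counts and medians of every list are therefore descriptions and no independent support. Alternatives were DESeq2 1.42.0, RLE scaling, a fit without the low-count filter or without the library term, thinning to 5000 UMIs, other cuts on the grouping genes, mitochondrial UMIs (15%) or UMIs per cell (1000), doublets kept and each library alone.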

Additional observations from a re-analysis of the deposited data

How the results depend on the processing

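Over 14 alternatives, the 10 receptor differences that passed the test gave 138 values, of which 116 kept the call and 22 lost it, all in the same direction. Thrb in Aldh1a1-high against Cyp11b1-high cells kept the call under all 14, with log2 differences of 1.56 to 2.09. Vdr there ranged from 3.69 to 4.46 and could not be tested with thinned cells, and since it entered the test through the Aldh1a1-high sums alone, its calls are no sign of stability. With each library alone they were 1.52 and 2.20 for Thrb and 3.83 and 3.89 for Vdr, with no test.

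Counts of called genes moved by over 1.5 times as follows. In Cyp11b1-high against Cyp11b2-high cells the count of 3886 became 782 with no replicate block (no library term) and 2024 with thinned cells. In Aldh1a1-high against Cyp11b1-high cells 1724 became 573 and 662 under these settings, and in Cyp11b1-intermediate cells 1977 became 136 and 998. In cells low in both 1602 became 14 and 809, and 795 with DESeq2. In co-expressing cells 6 became 3 with RLE, with at least 1000 UMIs and with thinning, 15 with DESeq2, 68 with no low-count filter, 1 with no replicate block and with Cyp11b1 cuts of 500 and 2000 CPM, and 12 with a Cyp11b2 cut of 100 CPM. A Cyp11b2 cut of 400 CPM left too few co-expressing cells to fit.

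The 8 receptor differences between co-expressing and Cyp11b2-high cells, none of which passed, were not followed one by one under the alternatives. In the other 4 comparisons the 22 differences that had not passed gave 306 values, of which 295 stayed so with the same sign and 11 turned sign without passing. For Nr2f2 in Aldh1a1-high against Cyp11b1-high cells these were 0.0272 with RLE, 0.0274 with DESeq2, 0.0694 with Cyp11b1 cuts of 500 and 2000 CPM, 0.0169 with an Aldh1a1 cut of 1000 CPM and 0.0295 with thinning. Esr1 in Cyp11b1-high against Cyp11b2-high cells gave -0.0760 with thinning. In Cyp11b1-intermediate cells Nr3c1 gave 0.141 and Thrb -0.115 with Cyp11b1 cuts of 200 and 500 CPM, Thrb gave -0.0364 with a Cyp11b2 cut of 400 CPM, and Nr2f2 gave 0.000803 with at least 1000 UMIs. Rora in cells low in both gave -0.0174 with a Cyp11b2 cut of 100 CPM. The causes of these changes were not tested. Few UMIs limit Vdr and Pgr in every group, and few cells limit all receptors in the Aldh1a1-high and co-expressing groups.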
